A study of Rattus norvegicus with 54 samples.

Results

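Very long genes were followed in rat cortical neuron cultures: the genes whose annotated exons spread over 500 kb or more of the genome. A gene was taken when the distance from its first to its last annotated base was at least 500000 bases, when it did not lie on chromosome X, Y or MT, and when its level averaged at least 1 CPM (the count scaled to the library's total) over all 54 libraries. The rule uses length and mean level only, but it was proposed with earlier results of these data known. It gave 175 genes of the 30560 in the count table. The other 12784 genes with a mean CPM of at least 1 outside X, Y and MT served for comparison, weighted so that each 1-unit step of log2 CPM counted as it did among the very long genes ("other genes of the same level" below).

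The cultures came from E18 rat cortex and are labelled as neurons. Each carried 1 of 3 constructs: no virus (untransfected), the control virus AAV-SYN-GFP, or AAV-SYN-rMBD3-GFP, made to overexpress Mbd3, a methyl-CpG binding domain protein of the NuRD chromatin remodelling complex. SYN is the usual name of the synapsin promoter, which is active mainly in neurons. Every construct was kept in standard medium with magnesium or in medium without magnesium (the epileptiform condition of the labels) and was sampled at 2, 6 and 24 h after that treatment began. The 18 groups held 3 libraries each, and the labels number the cell culture (1 to 3) in the same way in all groups. The series holds no library from before the treatment, so 2 h is the earliest level. A change over time is an average over all groups, controls included, unless constructs or pairs are named. It need not hold in every group.

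Removing magnesium relieves the block of NMDA receptors and lets cultured neurons fire in synchronous bursts. Very long genes owe their length to introns. RNA polymerase needs hours to cross the longest of them, and many genes of this kind in mammals are known to encode neuronal adhesion molecules, ion channels and synaptic scaffold proteins. Their RNA has been studied in neurons because it responds to inhibition of topoisomerases and to changes in methyl-DNA binding proteins. The count table gives Ensembl identifiers only and 0 of them could be matched to a symbol, so the genes are described by identifier and structure, and neither the cell type markers nor the Mbd3 transcript was checked here.

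The 175 genes were long through their introns. Their spans ran from 501482 to 2726412 bases with a median of 717409, against a median of 23911 for the other expressed genes. Their summed exons differed far less, with a median of 4942 bases against 3106. Exons thus made up a median of 0.652% of the span of a very long gene and 13.2% of that of another gene. The median very long gene had 22 exon blocks and a longest intron of 224740 bases, against 10 blocks and 7158 bases. Per length, the very long genes were the lower expressed ones: the median was 4.09 CPM per kb of exon, against 9.85. They also lay apart from other expressed genes, with a median distance to the nearest of 72495 bases against 4194. All autosomes held at least 1, with the most on chromosomes 4 (21 genes), 2 (19) and 1 (15). As a share of a chromosome's expressed genes they were most frequent on chromosomes 16 (3.67%) and 15 (2.96%), against 0.888% on chromosome 1.

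At the edge of the rule, the 5 genes just above the threshold spanned 501482 to 503512 bases and changed by log2 values of -3.20, -0.02, -2.75, 0.33 and -2.97 from 2 h to 24 h. The 5 just below it spanned 486795 to 499597 bases and changed by -2.14, -1.90, -0.85, -2.70 and -2.11. Both sides hold large falls, so the threshold marks no break in behaviour.

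RNA of the very long genes fell through the time course. Together they took 0.747% to 1.21% of all counts in the 18 libraries at 2 h (median 1.05%), 0.543% to 0.792% at 6 h (median 0.623%) and 0.345% to 0.731% at 24 h (median 0.426%). No 24 h library reached the lowest 2 h library. In these bulk samples, fewer cells of a type and less RNA per cell cannot be told apart.

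**Figure D1:**
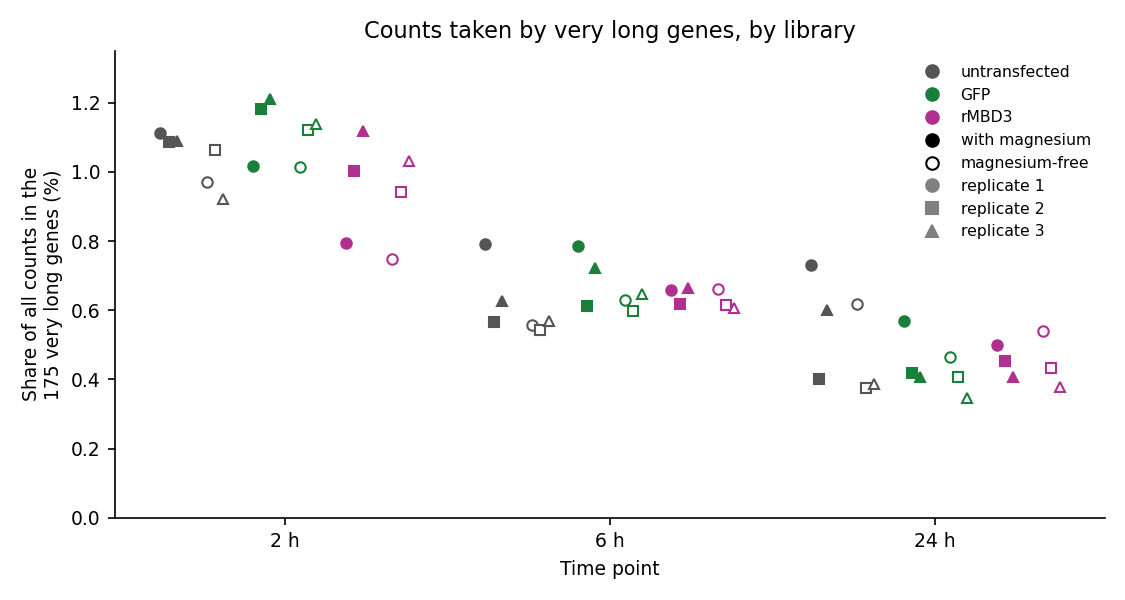
Share of all counts (percent, vertical axis) in the 175 very long genes for each of the 54 libraries, by time point; colour gives the construct, filled points the medium with magnesium, open points the magnesium-free medium, and the marker the culture number. The 18 libraries at 2 h lie between 0.747% and 1.21%, and those at 24 h between 0.345% and 0.731%, with culture 1 often the highest at 24 h.

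Gene by gene, 142 of the 175 fell and 25 rose between 2 h and 24 h, averaged over constructs and media (edgeR's quasi-likelihood test, Benjamini-Hochberg adjusted p under 0.05 over 17172 genes). That is 81.1% lower and 14.3% higher. Over all genes tested the shares past the threshold were 35.3% lower and 34.2% higher, and among other genes of the same level 37.02% lower and 38.49% higher. The median log2 fold change of the very long genes was -1.76, a 3.38-fold fall, with an interquartile range of -2.68 to -0.70. The other genes of the same level had a median of 0.03, which was 0.04 when exon length was matched as well. The fall reached at least 2-fold in 120 very long genes, 4-fold in 77, 8-fold in 20 and 16-fold in 2. As shares this is 68.6%, 44% and 11.4% for the first 3 sizes, against 17.4%, 7.34% and 2.06% of the other expressed genes. In the opposite direction, 10 genes rose at least 2-fold and 2 at least 4-fold, and the share of other genes with such rises was not counted. For 58 of the very long genes (33.1%) every 24 h library lay below every 2 h library, compared with 9.82% of the other expressed genes.

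The fall was already under way at 6 h. Between 2 h and 6 h, 135 genes fell and 16 rose (median -0.96), where 26.9% of all genes tested were lower and 22.2% higher. Between 6 h and 24 h, 105 fell and 23 rose (median -0.80), beside 26.3% lower and 24.3% higher over all genes tested. Other genes of the same level had medians of -0.04 and 0.04 in these steps. The median gene among the 142 had covered 50.9% of its 24 h fall by 6 h, on the log2 scale (interquartile range 41.7% to 65.2%). The most frequent course was a fall in both steps, seen in 95 genes (54.3%, against 17.8% of other genes of the same level). Another 33 passed the threshold downwards only in the first step (18.9%, against 10.3% of other genes of the same level) and 8 only in the second (4.57%, against 7.08%). A fall followed by a rise was as common as among the other genes, with 7 genes (4%, against 3.89%). A rise in both steps was seen in 9 genes (5.14%, against 12.2%), and 9 passed the threshold in neither (5.14%, against 22.5%).

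The change set the longest span classes apart. From 2 h to 24 h the median log2 fold change was 0.05 for genes under 20 kb (5698 genes), 0.09 at 20 to 50 kb (3455), 0.08 at 50 to 100 kb (1880), -0.08 at 100 to 200 kb (1117), -0.63 at 200 to 500 kb (634) and -1.76 at 500 kb or more. Genes up to 100 kb had medians near 0 in no order of span, and the medians below 0 were those of the 3 longest classes. Over all 12959 expressed genes, which share all libraries, Spearman's rho between span and the log2 fold change from 2 h to 24 h was accordingly small, at -0.06. From 2 h to 6 h the same 6 classes had medians of 0.02, -0.02, -0.07, -0.21, -0.50 and -0.96. From 6 h to 24 h they were 0.00, 0.08, 0.11, 0.04, -0.20 and -0.80. Within the very long genes the median from 2 h to 24 h was -1.46 at 500 to 750 kb (95 genes, 72 lower), -1.81 at 750 to 1000 kb (36 genes, 29 lower), -2.19 at 1000 to 1500 kb (30 genes, 27 lower) and -2.10 above that (14 genes, all 14 lower), so the order by span did not extend to the last class.

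**Figure D2:**
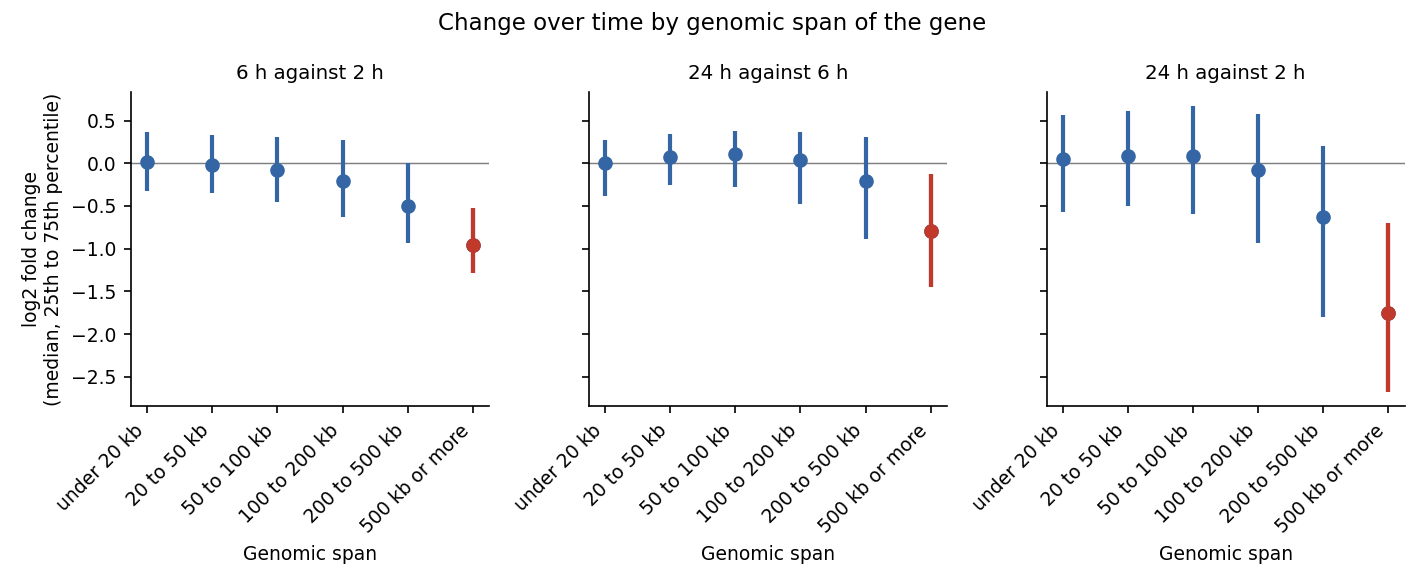
Median log2 fold change (points) and 25th to 75th percentile (bars) of genes outside X, Y and MT with a mean CPM of 1 or more, in 6 classes of genomic span, for 6 h against 2 h, 24 h against 6 h and 24 h against 2 h. The classes under 100 kb have medians between -0.07 and 0.11, and the class of 500 kb or more (red) has medians of -0.96, -0.80 and -1.76.

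The fall was found at every exon length. Among very long genes with under 2000 bases of exon the median from 2 h to 24 h was -2.16 (11 genes), and in those with 8000 bases or more it was -1.63 (43 genes). Genes under 20 kb with the same exon lengths had medians of 0.08 and 0.03. It was found at every expression level too: medians of the very long genes were -1.70, -2.20, -1.76 and -1.56 for mean CPM of 1 to 4, 4 to 16, 16 to 64 and above 64. Across the 175 genes, which share all libraries, the log2 fold change had a Spearman rho of -0.20 with span, -0.22 with the longest intron, 0.11 with exon length and 0.12 with mean CPM. Span beyond 500 kb therefore described only a small part of the differences among the very long genes.

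**Figure D3:**
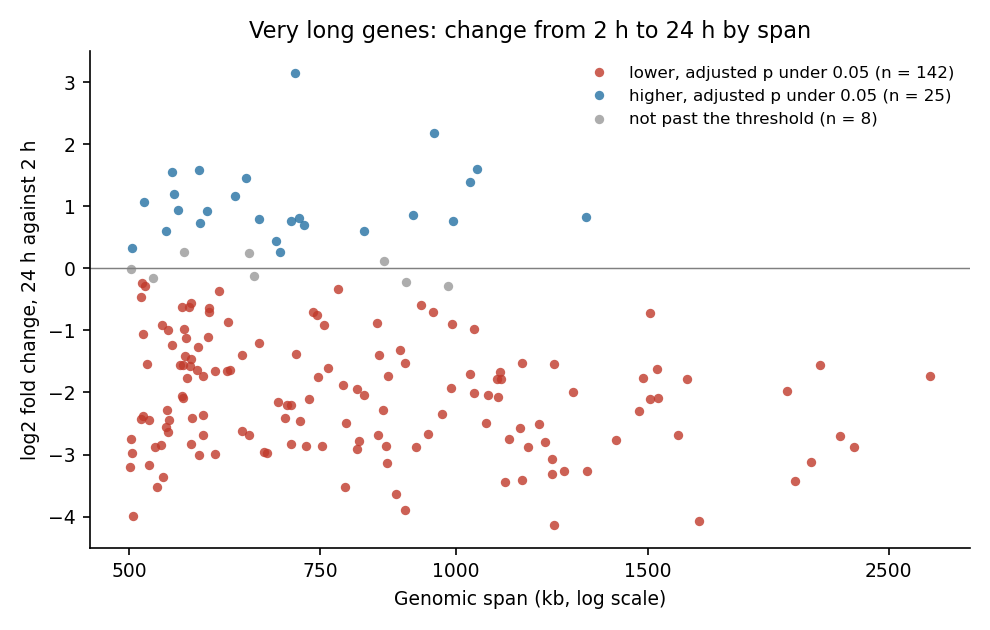
Log2 fold change from 2 h to 24 h (vertical axis) of each of the 175 very long genes against its genomic span (horizontal log axis, kb); red points were lower, blue points higher and grey points not past adjusted p 0.05. The 142 red points fill the whole range of spans, and the 25 blue points lie below 1500 kb.

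The cultures differed in how far the very long genes fell. In each of the 18 pairs of same-numbered 24 h and 2 h libraries their median change was below 0, from -2.73 to -0.67, while the medians of other genes of the same level stayed between -0.10 and 0.09. Pairs of culture 1 gave -1.27 to -0.67, those of culture 2 gave -2.47 to -2.11, and those of culture 3 gave -2.73 to -0.85. The smaller fall of culture 1 held for all 6 of its pairs against all 6 of culture 2. Without culture 1 the median over the 175 genes became -2.49, with 143 genes lower and 24 higher (95.4% of the 175 in either direction, against 75.2% of all genes tested). By gene, 91 were lower at 24 h in all 18 pairs and 9 were higher in all 18. These counts were made for the very long genes only, so no share among other genes stands beside them. From 6 h to 24 h the share of counts fell in 17 of 18 pairs, the exception being untransfected culture 1 in magnesium-free medium.

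The share of counts from mitochondrial genes also differed between libraries, from 1.38% to 4.90%, with a median of 1.79% at 2 h, 2.45% at 6 h and 2.34% at 24 h. Among the 6 untransfected libraries at 24 h, the 3 with the highest very long gene shares (0.731%, 0.617% and 0.600%) had mitochondrial shares of 3.16%, 4.07% and 4.90%. The other 3 had very long gene shares of 0.400%, 0.386% and 0.374% and mitochondrial shares of 1.75%, 2.73% and 1.77%. Among the GFP libraries at 24 h the highest very long gene share (0.570%) also came with the highest mitochondrial share (3.88%). Among the rMBD3 libraries at 24 h the highest very long gene share (0.539%) came with a mitochondrial share of 1.95%, in a range of 1.85% to 3.56%. The part of the mitochondrial share in the differences between cultures was not tested.

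Single genes show the range behind these medians (levels are CPM scaled by TMM, over 18 libraries per time point; coordinates are those of the count table, mRatBN7.2). ENSRNOG00000002595, 1673424 bases on chromosome 13 (34595868 to 36269292, 28 exon blocks), had 27.1 to 79.5 CPM at 2 h (median 56.3), 9.52 to 31.3 at 6 h (median 15.1) and 0.704 to 13.6 at 24 h (median 2.53). The 2 h and 24 h libraries did not overlap. Its log2 fold change at 24 h was -4.07 ± 0.28 (SE; adjusted p = 3.43e-16, edgeR). ENSRNOG00000007038, 1229718 bases on chromosome 8 (6738239 to 7967957), had the largest fall, from 12.2 to 35.6 CPM at 2 h (median 26.4) to 3.86 to 10.1 at 6 h (median 6.40) and 0.0361 to 6.40 at 24 h (median 1.18). All 24 h libraries again lay below all 2 h libraries. The log2 fold change was -4.14 ± 0.33 (adjusted p = 3.38e-14, edgeR), and 1 of its 24 h levels is below the 3 counts that a library needs here (0.0756 to 0.208 CPM).

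The most abundant very long gene, also per length (97.1 CPM per kb of exon), was ENSRNOG00000006235, 534652 bases on chromosome 7 (126198851 to 126733503, 26 exon blocks). It had 615 to 875 CPM at 2 h (median 671), 223 to 562 at 6 h (median 284) and 24.3 to 353 at 24 h (median 82.4). The fall was 2.84 ± 0.23 on the log2 scale (adjusted p = 7.28e-14, edgeR), and its highest 24 h library lay above its lowest 6 h library. The longest gene, ENSRNOG00000012802 on chromosome 16 (41252182 to 43978594, 40 exon blocks), had 117 to 347 CPM at 2 h (median 226), 65.4 to 135 at 6 h (median 94.2) and 39.9 to 138 at 24 h (median 61.8). Most of its fall lay in the first step: the log2 fold change was -1.32 ± 0.12 at 6 h and -1.73 ± 0.13 at 24 h.

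The 25 genes that rose had a median span of 682373 bases, against 745762 for the 142 that fell, and a median of 6314 bases of exon, against 4855. ENSRNOG00000006956, 953898 bases on chromosome 5 (99964486 to 100918384), had 1.28 to 4.61 CPM at 2 h (median 2.69), 1.46 to 5.09 at 6 h (median 3.86) and 3.14 to 28.8 at 24 h (median 12.3). It rose late: the log2 fold change was 0.35 ± 0.19 at 6 h, short of the threshold, and 2.18 ± 0.20 at 24 h (adjusted p = 8.93e-13, edgeR). ENSRNOG00000014530, 658578 bases on chromosome 1 (98663759 to 99322337) and second in mean CPM, had 142 to 270 CPM at 2 h (median 213), 134 to 360 at 6 h (median 273) and 238 to 601 at 24 h (median 362). It rose by 0.80 ± 0.11 at 24 h. The largest fitted rise, 3.14 ± 0.60 in ENSRNOG00000062316, was that of a gene of low level, with 0 to 1.66 CPM at 2 h (median 0.153) and 0 to 9.69 at 24 h (median 1.28). Its 2 h median lay within the range that 3 counts give here (0.0756 to 0.208 CPM). The 2 h and 24 h libraries of this gene overlapped.

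**Figure D4:**
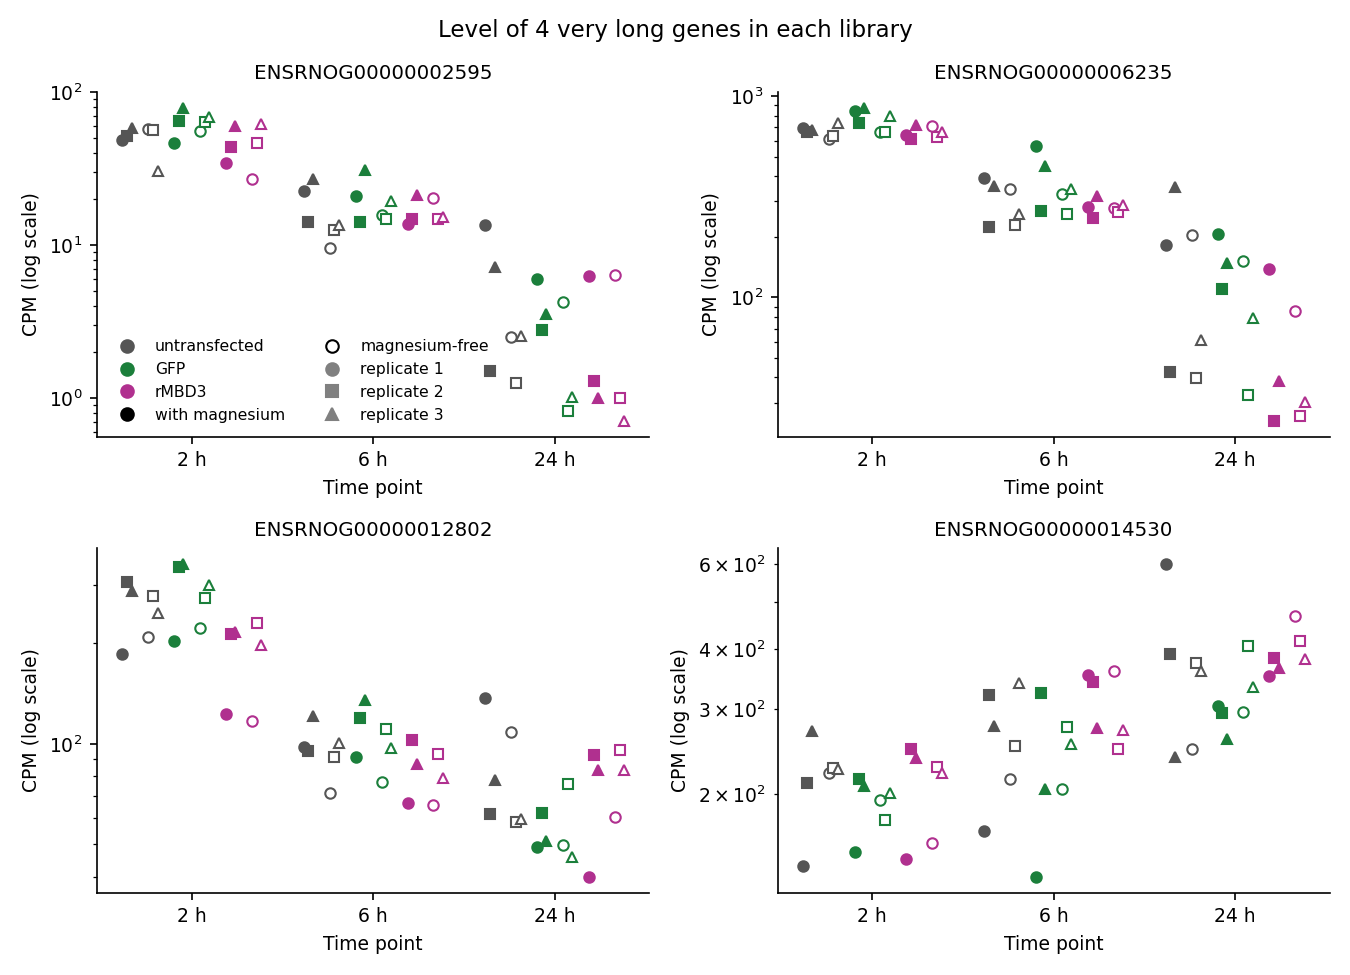
CPM (log axis) of 4 very long genes in each of the 54 libraries by time point, with construct by colour, medium by filling and culture number by marker. ENSRNOG00000002595 and ENSRNOG00000006235 fall from 2 h to 24 h in every construct, ENSRNOG00000012802 falls mainly before 6 h, and ENSRNOG00000014530 rises.

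The fall was present under each construct. From 2 h to 24 h, 115 very long genes were lower and 19 higher in untransfected cultures (median -1.40), where 24.0% of all genes tested were lower and 21.1% higher. In GFP cultures 138 were lower and 18 higher (median -1.92), beside 28.1% and 24.6%. In rMBD3 cultures 128 were lower and 19 higher (median -1.96), beside 27.6% and 25.9%. Without culture 2 the untransfected counts dropped to 79 lower and 13 higher (beside 14.7% and 10.1% of all genes tested). The difference between the GFP and untransfected falls was tested directly. Its median was -0.47, against -0.03 for other genes of the same level. A value below 0 was found in 154 of 175 very long genes (88%, against 54.4%). None of these passed the threshold in edgeR (0.0% of all genes tested), 15 had an unadjusted p under 0.05 (8.57%, against 3.995% of all genes tested), and DESeq2 called 0. This contrast was chosen after seeing the data.

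Against untransfected cultures, the control virus gave a median log2 fold change of -0.08 in the very long genes when all times were averaged. That average joins times of opposite sign. In same-numbered pairs of libraries the median of the very long genes was lower with GFP in 1 of 6 pairs at 2 h, 0 of 6 at 6 h and 4 of 6 at 24 h, and the middle of the 6 pair medians was 0.08, 0.12 and -0.34. No gene passed the threshold for the average in edgeR (0.297% of all genes tested did), and 14 had an unadjusted p under 0.05 (8%, against 10.1% of all genes tested). DESeq2 called 3, all lower, where it called 1.29% of all genes tested lower. With the culture number as a block, 1 gene was lower (0.571%, against 1.13% of all genes tested), and with a block for each time point 4 were (2.29%, against 2.38%).

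Overexpression of rMBD3 was compared with the GFP virus, its control. Averaged over media and times, 14 very long genes were higher (8% of the 175) and 10 lower (5.71%), while 6.41% of all genes tested were higher and 4.58% lower. In this fit with no block the shares are near the background, so its count says little of very long genes as such. The median log2 fold change was -0.18, against -0.02 for other genes of the same level. Values below 0 numbered 120 of 175 (68.6%, against 52.6%). With the culture number as a block, 19 were higher and 22 lower (12.6%), beside 9.31% and 8.12% of all genes tested. With a block for each culture number and time point, 20 were higher (11.4%) and 61 lower (34.9%), beside 11.5% and 12.3% of all genes tested. In that fit the share of lower genes was above the background and the share of higher genes was near it. With no block and culture 1 left out, the count was 17 higher and 34 lower (beside 8.09% and 6.43% of all genes tested). Without culture 2 it was 2 and 3 (1.88% and 1.05%), and without culture 3 it was 2 higher (1.48%) and 0 lower. The count with no block thus depended on which culture was left out.

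By time, the rMBD3 difference had a median of -0.24 at 2 h, -0.12 at 6 h and -0.13 at 24 h. Other genes of the same level had -0.04, -0.03 and 0.04, or -0.09, 0.00 and 0.08 with exon length matched as well. For the very long genes the later values rested on single cultures. At 6 h their median was -0.04 without culture 1 and -0.16 without culture 2. At 24 h it was -0.36 without culture 1 and -0.03 without culture 3. At 2 h both the share of counts in very long genes and their median were lower with rMBD3 in all 6 same-numbered pairs. The median was lower in 4 of 6 pairs at 6 h and in 4 of 6 at 24 h, while the share, which the abundant members dominate, was lower in 3 of 6 and 2 of 6.

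How many genes were called at single times depended on the pairing. With no block 1 was higher and 1 lower at 2 h (0.769% and 0.105% of all genes tested), and 3 were higher and 2 lower at 24 h (0.396% and 0.553%). At 6 h none passed in edgeR (0.221% of all genes tested did), and 13 had an unadjusted p under 0.05 (7.43%, against 9.504% of all genes tested). DESeq2 called 1 higher at 6 h (1.11% of all genes tested), and 4 higher and 11 lower at 24 h (1.08% and 2.25%). With the culture number as a block 4 were higher and 1 lower at 2 h (2.01% and 0.652% of all genes tested), and 1 and 1 at 6 h (1.01% and 0.402%). At 24 h this block gave 8 higher (4.57% of the 175, against 2.64%) and 16 lower (9.14%, against 3.95%). With a block for each culture number and time point, 6 were higher and 4 lower at 2 h (3.95% and 2.07% of all genes tested), and 2 and 1 at 6 h (2.13% and 0.978%). At 24 h that block gave 16 higher (9.14% of the 175, against 5.07%) and 46 lower (26.3%, against 7.59%). Without culture 1 and with no block, 13 were higher and 45 lower at 24 h (beside 3.7% and 6.69% of all genes tested).

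The change of the rMBD3 difference from 2 h to 24 h had a median of -0.01. Other genes of the same level had 0.02, or 0.11 with exon length matched as well. The median of the very long genes was -0.28 without culture 1 and 0.11 without culture 3. No very long gene passed the threshold for this change in edgeR (0.0175% of all genes tested did), and DESeq2 called 0. An unadjusted p under 0.05 was found for 24 (13.7%, against 8.18% of all genes tested). The rMBD3 and GFP values share the GFP libraries with the comparison of GFP and untransfected cultures.

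The gene with the largest fall under rMBD3 was ENSRNOG00000032350, 1149068 bases on chromosome 14 (61381076 to 62530144). At 2 h it had 13.7 to 15.7 CPM with GFP (median 14.8) and 8.86 to 14.9 with rMBD3 (median 10.5). At 24 h it had 0.271 to 3.73 CPM with GFP (median 3.33), 0.153 to 0.539 with rMBD3 (median 0.395) and 0.450 to 7.36 in untransfected cultures (median 1.45). The rMBD3 libraries were low at 24 h but overlapped the lowest GFP library. The lowest rMBD3 level lay within the range that 3 counts give here (0.0756 to 0.208 CPM). The averaged log2 fold change was -1.14 ± 0.23 (adjusted p = 0.00112, edgeR), and the adjusted p was 0.0573 without culture 1 and 0.0544 without culture 3.

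ENSRNOG00000016306, 580246 bases on chromosome 2 (11331442 to 11911688) with 90 exon blocks, was the largest rise under rMBD3. At 24 h it had 8.38 to 23.03 CPM with GFP (median 11.1), 13.1 to 35.8 with rMBD3 (median 23.1) and 3.63 to 22.1 in untransfected cultures (median 11.6). The ranges overlapped. The averaged log2 fold change was 0.82 ± 0.19 (adjusted p = 0.00435, edgeR), and the adjusted p was 0.0549 without culture 2 and 0.158 without culture 3.

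In magnesium-free medium most very long genes had somewhat lower values, and whether single genes passed the test depended on how the pairing of cultures entered the fit. Averaged over constructs and times the median log2 fold change was -0.26, against 0.00 for other genes of the same level, and 152 of 175 values were below 0. With no block no gene passed the threshold in edgeR (0.0% of all genes tested), and the smallest adjusted p was 0.419. An unadjusted p under 0.05 was found for 49 (28%), against 9.11% of all genes tested, and DESeq2 called 0 very long genes. By time the median was -0.12 at 2 h, -0.20 at 6 h and -0.41 at 24 h, while the number of values below 0 was 150, 148 and 140. These are 85.7%, 84.6% and 80%, against 49.1%, 54.4% and 46.8% of other genes of the same level. At 24 h edgeR with no block again called none (0.0% of all genes tested), and 53 had an unadjusted p under 0.05 (30.3%, against 11.6%). DESeq2 called 2 at 24 h, both lower (0.601% of all genes tested). The difference between 24 h and 2 h had a median of -0.27, with 0 genes past the threshold in edgeR and in DESeq2. An unadjusted p under 0.05 was found for 8 (4.57%, against 3.29% of all genes tested). A block for each time point was not run for this difference. Whether the medium difference of single genes was larger at 24 h was therefore not decided.

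A block for each culture number and time point brought calls: 31 lower and 0 higher averaged over times (17.7% of the 175, against 2.01% of all genes tested lower), and 51 lower and 0 higher at 24 h (29.1%, against 6.13%). The plain block called 0 over all times and 1 lower at 24 h (0.21% of all genes tested). At 24 h without culture 1, 11 were lower in the fit with no block (6.29%, against 0.994%). At 24 h the 6 span classes, from the shortest to the longest, had medians of 0.01, 0.04, 0.04, -0.01, -0.15 and -0.41, so the values furthest below 0 were those of the 2 longest classes.

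In same-numbered pairs the very long genes took a lower share of counts without magnesium in 25 of 27, which were 9 of 9 at 2 h, 8 of 9 at 6 h and 8 of 9 at 24 h. The pairs were 9 of 9 in untransfected, 9 of 9 in GFP and 7 of 9 in rMBD3 cultures. The median gene was lower in 18 of the 27 pairs (range 5 to 24). At 24 h the 3 untransfected pairs had shares of 0.617% against 0.731%, 0.374% against 0.400% and 0.386% against 0.600%, each time magnesium-free against magnesium. The 3 GFP pairs had 0.464% against 0.570%, 0.408% against 0.418% and 0.345% against 0.407%. The 3 rMBD3 pairs had 0.539% against 0.4998%, 0.434% against 0.453% and 0.379% against 0.406%, so culture 1 went the other way. The widest of these gaps, untransfected culture 3, came with mitochondrial shares of 2.73% and 4.90%. Untransfected cultures 1 and 2 went the other way, with mitochondrial shares of 4.07% against 3.16% and 1.77% against 1.75%. In each GFP pair the magnesium-free library had the lower mitochondrial share as well. In each rMBD3 pair the library with the lower very long gene share had the higher mitochondrial share. The part of the mitochondrial share in the medium difference was not tested.

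**Figure D5:**
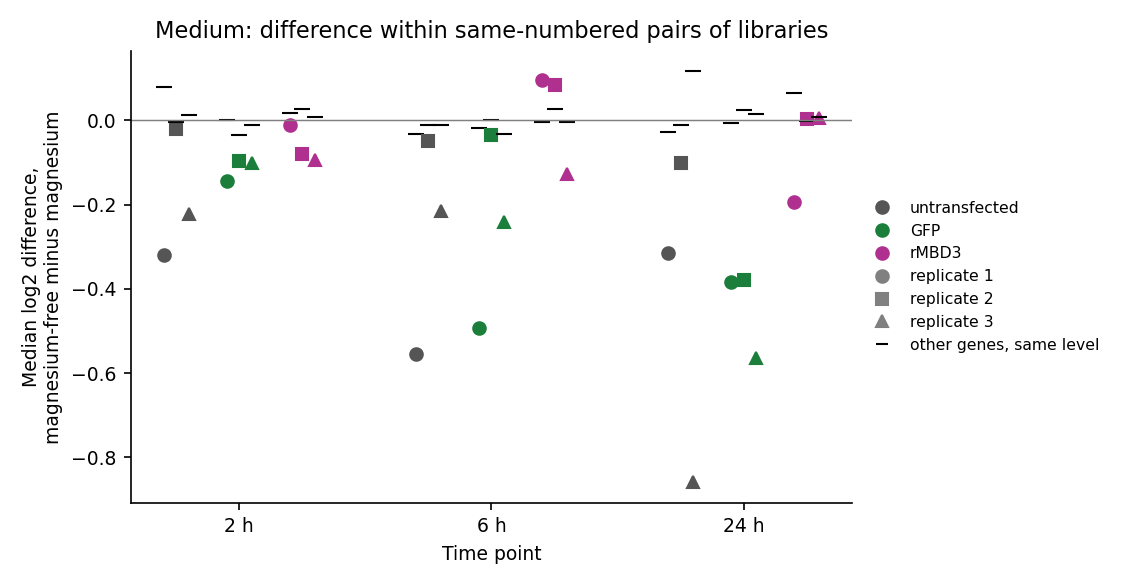
Median log2 difference of the 175 very long genes between magnesium-free and magnesium medium (vertical axis) within each of the 27 same-numbered pairs of libraries, by time point, construct (colour) and culture number (marker); short black bars give the median of other genes of the same level in that pair. Very long genes range from -0.86 to 0.10, and the other genes from -0.03 to 0.12.

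In rMBD3 cultures the medium difference at 24 h had a median of -0.11, beside -0.51 in untransfected and -0.50 in GFP cultures. Within rMBD3 pairs the median of the very long genes was lower without magnesium in 3 of 3 pairs at 2 h, 1 of 3 at 6 h and 1 of 3 at 24 h, with middle values of -0.08, 0.08 and 0.00. In untransfected and GFP cultures it was lower in every pair at each time. With a block for each time point, 17 genes were lower at 24 h in GFP cultures (9.71%, against 1.54% of all genes tested), 2 in untransfected (1.14%, against 0.134%) and 0 in rMBD3 cultures (0.0% of all genes tested). With no block and all cultures none was called within any construct. Without culture 1, the fit with no block called 15 lower in untransfected cultures at 24 h (8.57%). It called 6 lower and 1 higher in GFP cultures and 0 in rMBD3 cultures. The shares over all genes tested are not given for these 3 counts.

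The difference between the medium effects of rMBD3 and GFP cultures was tested over all times, not at 24 h alone. It had a median of 0.20, against 0.01 for other genes of the same level. Values below 0 numbered 41 of 175 (23.4%, against 48.4%). No gene passed the threshold in edgeR (0.0% of all genes tested), with or without a block, 3 had an unadjusted p under 0.05 (1.71%, against 2.75% of all genes tested), and DESeq2 called 0. A smaller medium difference under rMBD3 was therefore not established for any gene.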

How the data were processed

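RNA was measured by stranded mRNA sequencing in 54 libraries, 3 for each of 18 groups. The deposited gene counts were made by the authors with featureCounts 2.0.0 on read pairs, strand setting 2, primary alignments and a minimum mapping quality of 3, with the Ensembl release 105 annotation of mRatBN7.2, per the file headers. Reads were aligned with STAR to rn6 per the labels' protocols, while the submitters' processing notes name mRatBN7.2. Counting used strand, so overlapping genes on opposite strands were separated. Exons are counted, so RNA still being made enters only through exons already crossed. A second deposited table of log2 values was not used here.

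Total counts per library were 14448927 to 39691105. A count of 3, taken as the lowest readable level, corresponds to 0.0756 to 0.208 CPM, and covers counting error only, since reads carry no molecular identifiers. Replicates of a group differed far beyond sampling noise (chi-square per gene 9.76 to 358 over 54 pairs, genes with 20 counts or more).

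The filterByExpr filter (10 counts at least, 15 in total) retained 17172 genes, among them all 175 very long ones. The test was edgeR 4.0.16 (R 4.3.3): quasi-likelihood F test, TMM scaling, 1 coefficient per group, all libraries in 1 fit, robust, no block, Benjamini-Hochberg adjustment over all genes tested, threshold 0.05. Averaged comparisons weight each condition equally, and a standard error is the log2 fold change over the square root of F. Differences within pairs of libraries used log2 of TMM-scaled CPM plus 0.5. Genes are named by largest change past the threshold in each direction, by span and by level, with at most 2 per direction since identifiers carry no symbols.

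The labels number the cell culture, so same-numbered libraries were taken as paired. Deviations from the group means correlated by 0.409 on average between rMBD3 and GFP (18 of 18 pairs over 0.1), 0.423 between media (25 of 27), 0.421 between GFP and untransfected (17 of 18) and 0.0665 between 24 h and 2 h (6 of 18). Alternatives were a block for the culture number, alone or for each time point, DESeq2 1.42.0, relative log expression and upper-quartile factors, no count filter, only the groups compared, other span and level minimums, and leaving out each culture. The contrasts of the medium at 2 h, at 6 h and within constructs, and those comparing the GFP and medium differences at 24 h with those at 2 h, were added once values had been seen. The members and lists were chosen with earlier results of these data known. On simulated counts with 200 changed genes, 87% of 2-fold and 18% of 1.5-fold changes were recovered for 24 h against 2 h (16131 genes). For rMBD3 against GFP (16112 genes) 83% and 15% were recovered. Of the calls, 6.25% and 5.77% were false in these comparisons. Every simulated gene had the same spread and the libraries were drawn independently, without pairing of cultures. The recovery therefore does not give that of the very long genes in the data.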

Additional observations from a re-analysis of the deposited data

How the results depend on the processing

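The fall of the very long genes over time kept its direction and its count within 1.5 times under every alternative run. From 2 h to 24 h, 156 to 167 genes were past the threshold and the median was -2.49 to -1.52. Upper-quartile scaling moved the median of all genes by 0.11 for this contrast, and the very long genes then had a median of -1.65. A block for each time point was not run for contrasts between times. That includes the differences of the rMBD3, GFP and medium effects between 24 h and 2 h. With the culture number as a block, rMBD3 against GFP gave 41 genes in place of 24, and 5 at 2 h, 2 at 6 h and 24 at 24 h; GFP against untransfected gave 1, and the medium at 24 h gave 1. The plain block changed no other count by over 1.5 times. With a block for each time point the counts were 81 for rMBD3 against GFP, 10 at 2 h, 3 at 6 h and 62 at 24 h, 4 for GFP against untransfected, 31 for the medium and 51 for the medium at 24 h. DESeq2 gave 6, 1 and 15 for rMBD3 at 2, 6 and 24 h, 3 for GFP and 2 for the medium at 24 h. For rMBD3 at 2 h and 24 h, relative log expression factors gave 1 and 3, no count filter 0 and 2, and only the groups compared 6 and 0; upper-quartile factors gave 3 at 24 h. The share past the threshold with rMBD3 was 0.709% at 2 h and 1.77% at 24 h for spans of 400 kb or more, and 0% and 4.55% for 1000 kb or more. Leaving out 1 culture gave 2 to 51 genes for rMBD3 against GFP, 0 to 3 at 2 h, 0 to 58 at 24 h, 0 to 3 for its difference between 24 h and 2 h, 0 to 1 for GFP and 0 to 11 for the medium at 24 h. No share over all genes tested is given for the DESeq2 count at 2 h. Nor is it given for the counts with other factors, filter, groups or span minimums. Several counts with 1 culture left out lack it too, so these values show only how the count moved. The cause of these changes was not tested. Simulated 1.5-fold changes were mostly missed for the comparisons simulated, 24 h against 2 h and rMBD3 against GFP with no block. The medium was not simulated. The simulation changed 200 genes, whereas 11943 of 17172 genes tested passed the threshold in the data for 24 h against 2 h. Its recovery therefore does not give the power of that contrast. There 167 of the 175 very long genes passed, while 120 fell and 10 rose at least 2-fold.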

Other observations

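Very long genes outside the rule behaved as follows. Of 221 genes with a span of 500 kb or more, 11 lay on X, Y or MT, and of these 9 were lower and 1 higher at 24 h than at 2 h, with a median log2 fold change of -2.61 (edgeR, adjusted p under 0.05). Another 35 had a mean CPM under 1, of which 18 could be tested, and 8 of those were lower and 1 higher, with a median of -0.58.

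Short expressed genes lying inside a very long gene could be read on their own. There were 12 on the opposite strand, with a median log2 fold change of -0.03 from 2 h to 24 h. Of these, 4 were higher (33.3%) and 5 lower (41.7%), beside 34.2% and 35.3% of all genes tested. Of the 2 on the same strand, 1 rose and 1 fell. The hosts of the nested genes were not summarised apart from the other very long genes. The number of nested genes is too small for a comparison.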
